A study of Homo sapiens with 24 samples.

Results

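Untreated cells of 2 pancreas lines were compared by RNA-seq, HPDE c7 (here HPDE) against HPNE, with 3 libraries of each. All genes with a mean level of at least 1 FPKM (reads scaled by gene length and by the library's total, so levels can be set beside each other across genes) in either line were taken, which gave 13405 of the 48162 genes in the deposited tables. Of these, 10462 reached the minimum in both lines, 1744 in HPDE alone and 1199 in HPNE alone, and the other 34757 genes of the tables reached it in neither. The protein-coding genes nearest to the minimum, with chromosome Y left out, were TGM1 (0.298 FPKM in HPNE and 1.003 in HPDE) and SPRN (0.644 and 1.007) just inside it. Just outside it were ARHGEF33 (0.0485 and 0.998) and OVGP1 (0.997 and 0.310).

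The series holds 24 libraries, 3 for each of 8 groups, made to follow how vesicles shed by pancreatic cancer cells act on normal pancreas cells. Both lines were kept in a serum-free keratinocyte medium with antibiotics in 24-well plates. The untreated groups received fresh serum-free medium for 24 h. In the other groups the same lines received, for 24 h, residual medium from the vesicle isolation, or a fixed number of extracellular vesicles (EV) per well from PANC-1 or PPCL-68 cells. The design text calls the libraries of a group biological triplicates. Each line is 1 established line, HPDE being a clone by its name, so a difference between lines cannot be told apart from a difference between the people they came from, or from the way each line was immortalised. The values below describe these 2 lines and no wider group of duct or stromal cells.

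As background, hTERT-HPNE cells were grown out from human pancreatic duct tissue, were named for the progenitor protein nestin, and were immortalised with the catalytic subunit of telomerase (TERT). HPDE-H6c7 cells came from normal human duct epithelium and were immortalised with the E6 and E7 genes of a human papillomavirus. E6 directs the tumour suppressor p53 to degradation and E7 binds and inactivates the retinoblastoma protein RB, which otherwise holds back E2F transcription factors and entry into DNA synthesis. Epithelial cells are joined by E-cadherin, tight junctions and desmosomes and are braced by keratins. Mesenchymal cells instead make vimentin and N-cadherin and surround themselves with fibrillar collagens and fibronectin. Transcription factors of the ZEB, SNAI and TWIST families repress epithelial genes, and ZEB and SNAI proteins do so by binding E-boxes in their promoters.

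The marker genes of the 2 lines were far apart. EPCAM, an adhesion protein of epithelial cells (chromosome 2, 47572297 to 47614740, hg19), was at 0, 0.0925 and 0.0455 FPKM in HPNE replicates 1 to 3 and at 150.1, 151 and 148 in HPDE replicates 1 to 3, a difference (HPDE minus HPNE, on the log2(FPKM + 1) scale) of 7.17 ± 0.053 (standard error, limma adjusted p 1.20e-09). The keratin KRT19, the classical keratin of duct cells (chromosome 17, 39679869 to 39684560), was at 0.0929, 0.367 and 0.207 against 924, 1028 and 914 FPKM (here and below, HPNE replicates 1 to 3 stand before "against" and HPDE replicates 1 to 3 after it) (9.62 ± 0.092, adjusted p 1.83e-09). For both genes every HPNE library was under 1 FPKM and far below every HPDE library. Vimentin (VIM, chromosome 10, 17270258 to 17279592), the intermediate filament of mesenchymal cells, was at 279, 282 and 300.4 against 22.96, 25.5 and 23.9 FPKM (-3.52 ± 0.057, adjusted p 9.34e-09). VIM was thus higher in HPNE with no overlap, yet its HPDE level was well above 0. TERT (chromosome 5, 1253262 to 1295184) was at 114, 124 and 200.1 against 2.52, 2.74 and 2.702 FPKM (-5.28 ± 0.20, adjusted p 4.10e-07). Reads of an introduced TERT copy and of the cell's own gene cannot be told apart in these tables. Against the label of duct epithelium stood 2 facts: many markers of mature duct cells were under 1 FPKM in HPDE, and markers of squamous, stratified epithelium were among its highest genes, as given below.

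**Figure D1:**
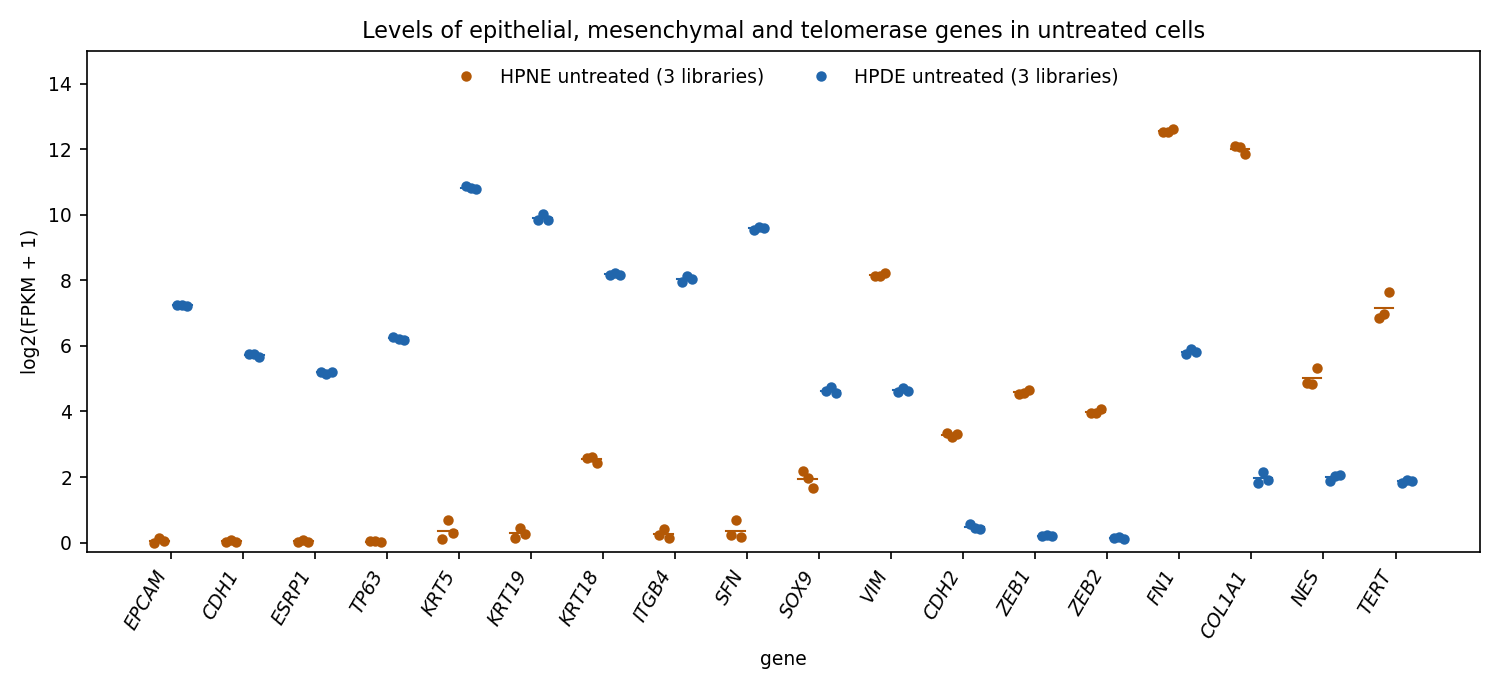
Levels of 18 marker genes in the 6 untreated libraries, as log2(FPKM + 1); each point is 1 library and each short line the mean of 3. EPCAM, CDH1, KRT5 and KRT19 lie near 0 in HPNE and far above it in HPDE, VIM, FN1, COL1A1 and TERT are higher in HPNE, and no gene shown has overlapping groups.

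The untreated libraries held 30169822 to 42206773 reads in genes and 20310 to 23080 genes with a read. The 10 most abundant genes took 16.7 to 17.8% of the reads in HPNE, with fibronectin FN1 alone at 5.50%, and 4.37 to 4.46% in HPDE. FPKM is relative to a library's own total, so abundant genes lower the values of all others. The median difference over all tested genes was 0.37 toward HPDE, and 0.07 after division by median-of-ratios size factors (which assume that most genes do not differ), a shift of -0.30. Differences are best read relative to 0.37. HPNE replicate 3 stood apart: its root mean square log2 distance to the other HPNE libraries was 0.317 and 0.325, against 0.140 to 0.152 for every other pair within a line and 1.53 to 1.58 between lines. With bulk RNA, fewer cells of a kind and less RNA in each cell cannot be told apart.

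Most genes differed between the lines. By limma, 11390 of the 13405 genes (85%) passed an adjusted p of 0.05, with 7503 (56%) higher in HPDE and 3887 (29%) higher in HPNE. The libraries of the 2 lines did not overlap for 11593 genes (86.5%). With a difference of at least 1 on the log2 scale as well, 3612 genes (26.9%) were higher in HPDE and 1751 (13.1%) in HPNE. Genes that reached the minimum in 1 line alone had to differ by this choice. Among the 10462 genes present in both, 5809 (55.5%) were higher in HPDE and 2751 (26.3%) in HPNE. The excess toward HPDE depended on the scaling: 65.9% of the calls were higher in HPDE with FPKM as deposited and 53.2% with size factors, where 5906 genes were higher in HPDE and 5205 in HPNE. Among the calls of at least 1, the share was 67.4% and 52.1%. Without HPNE replicate 3, 11858 genes passed. Since differences are this common, the lists below are to be read against 56% and 29%, and by their sizes rather than their counts. A list member that passed the minimum only through its high line had to differ, so counts over lists are descriptions.

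The 10 protein-coding genes farthest toward HPDE were KRT5 (10.45), KRT19, FGFBP1 (9.48), SFN (9.23), S100A14 (9.10), S100A2 (9.09), KRT7 (8.96), KRT14 (8.84), KRT6A (8.78) and COL17A1 (8.57). The 10 farthest toward HPNE were COL6A2 (-11.53), COL6A1 (-11.39), COL1A2 (-10.68), COL3A1 (-10.44), GREM1 (-10.18), COL1A1 (-10.05), COL6A3 (-9.51), DCN (-8.77), CD248 (-8.73) and PDGFRB (-8.58). A difference of at least 4 was seen for 200 genes toward HPDE and 164 toward HPNE, and one of at least 8 for 12 in each direction. Genes at 10 FPKM or more in one line and below 0.1 FPKM in the other numbered 144 for HPDE and 79 for HPNE.

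Genes of epithelial junctions and the epithelial surface were high in HPDE throughout. Of 25 listed, 23 were tested and all 23 were higher in HPDE (median difference 4.78, against 0.37 for all tested genes). Summed over the list, the level was 3.15 to 4.65 FPKM in the HPNE libraries and 952 to 973 FPKM in the HPDE libraries. E-cadherin CDH1, the adhesion protein of epithelial cell contacts, was at 0.0132, 0.0589 and 0.00537 against 52.8, 53.5 and 49.9 FPKM. The serine protease ST14, which works at the epithelial surface, was at 0, 0.0541 and 0.00739 against 64.7, 68.6 and 65.3 FPKM. Its inhibitor SPINT1 was at 0.0106, 0.0209 and 0.0343 against 66.2, 69.7 and 67.4. Each of these genes was near 0 in HPNE and well expressed in HPDE. The tight junction proteins claudin 1 (CLDN1, difference 5.54), claudin 7 (CLDN7, 4.78) and cingulin (CGN, 4.04) were all in the same direction. CRB3, a polarity protein of the apical membrane, had no read in any HPNE library and was at 10.9, 9.88 and 11.3 FPKM in HPDE. The 2 members below the minimum, CLDN3 and TJP3, stayed under 0.13 FPKM in every library.

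Epithelial transcription and splicing factors were also higher in HPDE, with 14 of 15 tested (17 listed, median 3.83). TP63, the master factor of stratified epithelium, was at 0.0263, 0.03899 and 0.00533 against 76.4, 73.7 and 71.5 FPKM. EHF, an ETS factor of epithelial cells, was at 0.0205, 0.162 and 0.0748 against 79.1, 78.9 and 76.9 FPKM. In both, the HPNE libraries lay near 0. ESRP1, which directs epithelial splicing, was at 0.0171, 0.0592 and 0.00694 against 36.1, 34.5 and 36.1 FPKM. GRHL2, a factor that keeps junction genes on, was at 0, 0.00609 and 0 against 13.5, 13.1 and 13.3. Both were near 0 in HPNE. KLF5, a factor of proliferating epithelium, was low but present there, at 1.73, 1.45 and 1.39 against 48.7, 45.7 and 44.5 FPKM. FOXA2, a factor of endoderm-derived organs, differed by 3.22. The exception was TFAP2C, at 8.41, 10.8 and 19.5 against 3.47, 2.97 and 3.16 FPKM (-1.65, adjusted p 7.99e-04). The highest of its HPNE values was in replicate 3.

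The repressors of the epithelial program went the other way: all 12 tested factors of epithelial to mesenchymal transition (13 listed, median -3.37) were higher in HPNE. ZEB1 was at 22.1, 22.5 and 24.2 against 0.153, 0.185 and 0.139 FPKM. ZEB2 was at 14.6, 14.3 and 15.8 against 0.111, 0.136 and 0.0872. The factors past -4 were the T-box factors TBX2 (-5.82) and TBX3 (-5.07), ZEB1 (-4.37) and the mesenchymal factor FOXC2 (-4.33). ZEB2 was at -3.84. The family was not absent from HPDE. SNAI2, a SNAI factor that basal keratinocytes also make, was at 107, 109 and 104 against 70.5, 64.3 and 66.5 FPKM (-0.66 ± 0.051, adjusted p 1.44e-05). The HPDE libraries of SNAI2 lay below all HPNE libraries but well above 0. TWIST2 was at 22.8, 24.96 and 24.01 against 14.9, 14.8 and 13.95 FPKM (-0.68). SNAI1 was at 20.4, 23.05 and 7.699 FPKM in HPNE, with replicate 3 lowest, and at 1.89, 2.16 and 2.02 in HPDE.

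The E-box bound by ZEB and SNAI proteins could be looked for in RefSeq promoter windows (GRCh38.p14, 250 bases before to 50 after the gene start), and the windows of CRB3 and AP1M2 (an epithelial sorting adaptor subunit) are printed because they hold the motif several times. Capitals mark CACCTG or, read on the other strand, CAGGTG.
CRB3 promoter, chr19:6464021-6464320, plus strand: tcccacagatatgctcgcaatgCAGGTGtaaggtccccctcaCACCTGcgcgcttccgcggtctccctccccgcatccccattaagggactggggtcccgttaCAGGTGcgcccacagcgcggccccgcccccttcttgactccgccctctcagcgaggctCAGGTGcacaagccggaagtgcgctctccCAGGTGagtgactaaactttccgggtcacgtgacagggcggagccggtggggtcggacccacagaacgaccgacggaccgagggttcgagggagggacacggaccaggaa
AP1M2 promoter, chr19:10587263-10587562, minus strand: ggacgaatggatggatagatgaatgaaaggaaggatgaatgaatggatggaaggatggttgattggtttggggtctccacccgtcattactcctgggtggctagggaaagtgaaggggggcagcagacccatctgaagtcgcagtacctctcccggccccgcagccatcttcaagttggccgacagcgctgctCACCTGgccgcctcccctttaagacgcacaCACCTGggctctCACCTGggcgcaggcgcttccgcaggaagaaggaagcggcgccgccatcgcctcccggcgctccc
CRB3 holds 5 such matches and AP1M2 holds 3. AP1M2 was at 0.0184, 0 and 0 against 30.3, 34.3 and 31.8 FPKM. Over all 27303 windows, searched on both strands, 20.6% held a match, and over the 10064 windows of tested genes 17.7% did. Among genes higher by at least 1, the share was 22.1% of 2732 windows for HPDE and 13.5% of 1252 for HPNE. The HPDE share at this cut was thus above that of tested genes and close to that of all windows, and the HPNE share was below both. Among genes higher in HPDE by at least 4, 52 of the 131 with a window (39.7%) held one, against 14 of 109 (12.8%) of those higher in HPNE by at least 4 and 15.9% of 3395 genes that differed by under 0.5. In the junction list 6 of 14 windows held a match, and in the stromal matrix list 0 of 17. Windows were found for 65.5% and 66.5% of the genes higher by at least 4 in HPDE and in HPNE, which is too few for a check of the whole sets. A match is a string of letters and not a bound site.

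HPDE had keratins of both simple and stratified epithelium. All 5 tested simple-epithelium keratins (7 listed) and all 8 tested stratified keratins (21 listed) were higher in HPDE. Of the simple type, KRT7 was at 0.147, 0.855 and 0.612 against 727, 809 and 719 FPKM. KRT8 was at 6.12, 6.28 and 2.44 against 652, 664 and 645. KRT18 was at 5.04, 5.13 and 4.35 against 287, 299 and 287. KRT8 and KRT18, which pair with each other, were thus low but clearly present in HPNE. Of the basal stratified type, KRT5 was at 0.0765, 0.605 and 0.238 against 1869, 1786 and 1756 FPKM. Its partner KRT14 was at 0, 0.09597 and 0.0787 against 481, 486 and 479.9. KRT6A and KRT17, keratins of activated keratinocytes, differed by 8.78 and 6.93. KRT6A has near-identical copies (KRT6B, KRT6C) that could share its reads. The keratins of differentiated skin and mucosa were at or near 0 in HPDE: KRT1 and KRT4 had no read in any library, and KRT13 was at 0.126, 0.116 and 0.0543 FPKM. KRT10, another keratin of differentiated skin, was at 6.37, 6.31 and 5.15 against 8.75, 7.56 and 8.86 FPKM, and its difference of 0.44, near the median of all genes, did not pass with size factors (0.12, adjusted p 0.257).

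All 13 tested desmosome genes (15 listed, median 3.20) were higher in HPDE. The plakophilins PKP1, PKP2 and PKP3, which anchor keratins at the desmosome, differed by 5.10, 5.03 and 6.12. Desmoplakin (DSP) was at 14.1, 14.999 and 18.2 against 76.1, 73.7 and 71.8 FPKM, so HPNE kept part of this set. Of 35 genes of the cornified envelope and squamous differentiation, 13 were tested and 12 were higher in HPDE. SFN (14-3-3 sigma), an epithelial cell cycle checkpoint protein, was at 0.172, 0.606 and 0.119 against 748, 786 and 772 FPKM. S100A2, a calcium-binding protein of basal epithelium, was at 1.49, 1.598 and 1.39 against 1515, 1129.5 and 1466. SERPINB5 (maspin) differed by 6.87. The late envelope genes were low: LOR had no read, and involucrin (IVL) was at 0.523, 0.352 and 0.856 FPKM in HPDE. SBSN was the 1 squamous gene higher in HPNE (-1.44), at 1.34, 1.62 and 2.58 FPKM there.

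The mesenchymal list divided. Of 18 tested genes (20 listed, median -2.51), 14 were higher in HPNE, 2 in HPDE and 2 did not pass. PDGFRB, the receptor for platelet-derived growth factor on stromal cells, was at 503, 492 and 340.5 against 0.0638, 0.203 and 0.1699 FPKM. N-cadherin CDH2 was at 9.12, 8.34 and 8.86 against 0.474, 0.355 and 0.328. THY1, a surface protein of fibroblasts, was at 19.4, 19.5 and 36.4 against 0, 0 and 0.04905. The contractile gene ACTA2 was at 7.17, 9.96 and 23.1 against 1.49, 1.295 and 1.11 FPKM. TAGLN, another actin-binding contractile gene, was at 26.1, 26.1 and 88.6 against 0.633, 0.654 and 0.6795. Both were highest in HPNE replicate 3 and did not overlap between the lines. The adhesion receptor CD44 was higher in HPDE (1.27, at 70.3, 69.02 and 81.3 against 181, 180.4 and 175 FPKM). The kinase AXL was at 47.2, 47.98 and 58.5 against 69.6, 72.7 and 72.96 FPKM, a difference of 0.48 that did not pass with size factors (0.13, adjusted p 0.233). S100A4, a calcium-binding protein, did not pass (1.24, 1.56 and 2.01 against 1.84, 1.35 and 2.14 FPKM), its libraries overlapping. The ectonucleotidase NT5E did not pass either (89.5, 87.5 and 167 against 101, 101 and 94.1 FPKM). HPNE replicate 3 was its highest library, and without it NT5E differed by 0.155 toward HPDE (adjusted p 0.00929).

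The stromal matrix list had the most negative median of the lists. Of 28 tested genes (29 listed, median -5.45), 25 were higher in HPNE, and the list summed to 24809 to 25496 FPKM in HPNE libraries and 535 to 558 FPKM in HPDE libraries. The fibrillar collagen gene COL1A1 was at 4337, 4277 and 3731 against 2.49, 3.45 and 2.76 FPKM. COL3A1 was at 1889, 1786 and 1122 against 0, 0.184 and 0.198. COL6A2, a chain of beaded filaments, was at 3641, 3646 and 4064 against 0.00958, 0.561 and 0.324. COL1A2 and COL3A1 had no read in HPDE replicate 1 and traces in replicates 2 and 3. Fibronectin FN1 was at 5854, 5885 and 6212 against 52.9, 59.2 and 55.4 FPKM, so HPDE kept a measurable level. Periostin POSTN was lowest among HPNE libraries in replicate 3, at 224, 209 and 99.9 against 0, 0.0421 and 0.0221 FPKM. Biglycan BGN was likewise, at 248, 251 and 147 against 0.483, 0.513 and 0.508. Tenascin C (TNC) and THBS2 were higher in HPDE, TNC at 0.558, 0.547 and 7.65 against 14.4, 14.7 and 15.2 FPKM, with its HPNE value resting on replicate 3. Thrombospondin THBS1 did not pass (123, 125 and 232 against 173, 174 and 169 FPKM). Without HPNE replicate 3 it differed by 0.47 toward HPDE (adjusted p 4.32e-06), and with size factors by -0.19, which did not pass.

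Each line had its own set of basement membrane chains. Of 22 genes, 8 were higher in HPDE and 12 in HPNE. Laminin chains of basal epithelium were higher in HPDE. LAMA3 was at 0.0878, 0.215 and 0.0344 against 176, 192 and 183 FPKM. LAMB3 was at 12.1, 13.3 and 17.1 against 614, 666 and 667. No HPNE library overlapped an HPDE library for either chain. Of the hemidesmosome, which ties laminin to keratins, ITGB4, COL17A1 and ITGA6 (5.45) were higher in HPDE. Its integrin chain ITGB4 was at 0.175, 0.323 and 0.0973 against 246, 277 and 264 FPKM. Its transmembrane collagen COL17A1 was at 0.0619, 0.184 and 0.123 against 422, 435 and 421. Its tetraspanin CD151 was higher in HPNE (-0.69, adjusted p 1.29e-05). So was COL7A1 (-1.65, adjusted p 8.51e-06), the collagen of anchoring fibrils and not a chain of the hemidesmosome. Laminin chains of mesenchyme and vessels were instead higher in HPNE. LAMA4 was at 38.7, 37.6 and 54.3 against 0.0405, 0.0145 and 0.0799 FPKM. LAMB2 was at 121, 121 and 122 against 5.497, 5.604 and 5.32. Collagen IV (COL4A1, -4.89) and nidogens NID1 (-4.50) and NID2 (-5.19) were higher in HPNE too. Laminin chain LAMA5 (27.9, 28.9 and 44.7 against 41.1, 44.1 and 42.5 FPKM) did not pass, nor did the linker plectin PLEC (71.1, 74.5 and 105 against 69.3, 78.5 and 79.6). HPNE replicate 3 was the highest HPNE library for both, and LAMA5 passed toward HPDE without HPNE replicate 3 (0.57, adjusted p 7.26e-06). PLEC passed toward HPNE with size factors (-0.48, adjusted p 0.0226).

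Integrins, the receptors for these proteins, also differed both ways, with 5 of 14 tested (20 listed) higher in HPDE and 9 in HPNE. The collagen receptor ITGA11 of fibroblasts was at 158, 157 and 176 against 0.119, 0.194 and 0.0646 FPKM. The shared beta chain ITGB1 was at 493, 492 and 593 against 125, 128 and 123. ITGA6, the laminin receptor chain that pairs with ITGB4, was at 3.295, 3.09 and 4.998 against 212, 202 and 202. ITGB6, an epithelial chain that binds latent TGF-beta, was at 0.00691, 0.0136 and 0.0112 against 11.9, 11.8 and 9.75.

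**Figure D2:**
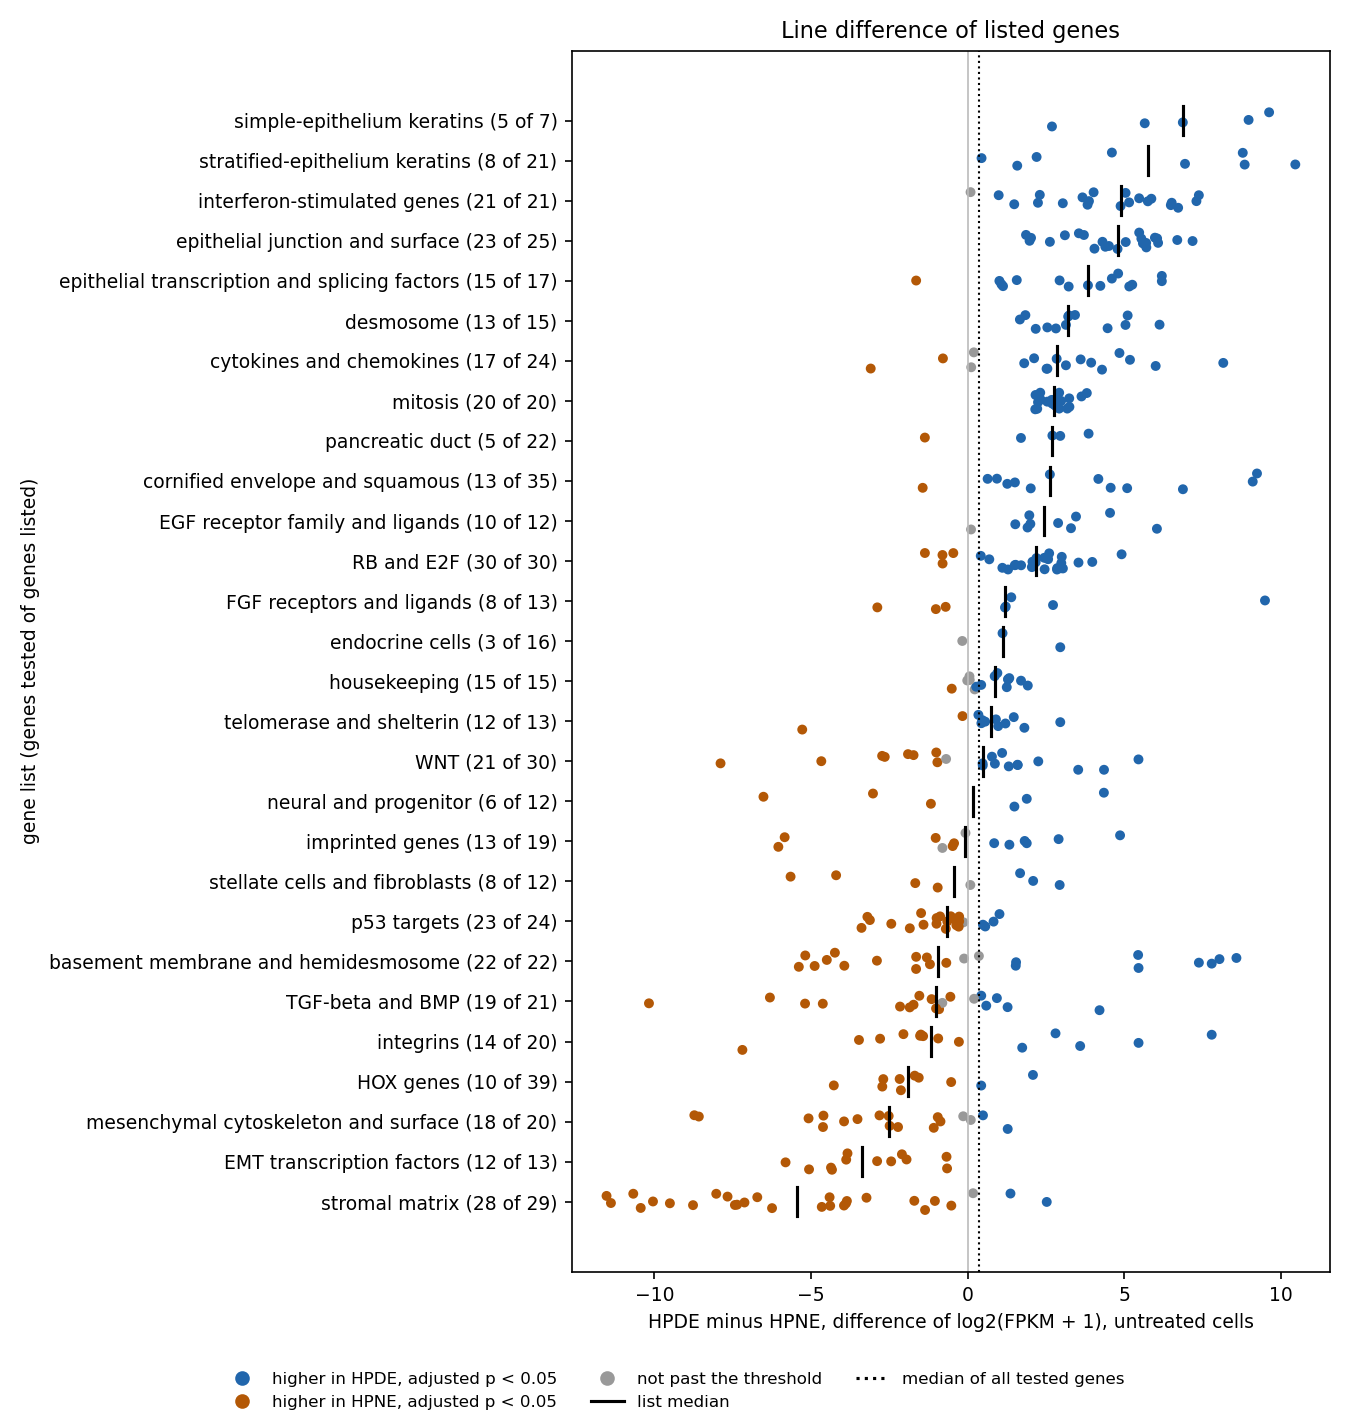
Difference between the lines (HPDE minus HPNE, log2(FPKM + 1)) of each tested gene of the lists with at least 3 tested genes; points are genes, coloured by their limma call, black bars are list medians and the dotted line is the median of all tested genes, 0.37. Stromal matrix has the lowest median (-5.45), while every mitosis and junction gene lies to the right of 0.37, as does every interferon gene but IRF1.

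Few genes of duct identity were expressed at 1 FPKM or more. Of 22 duct genes, 5 were tested and 17 were under 1 FPKM in both lines. SOX9, a factor of duct cells and progenitors, was at 3.52, 2.94 and 2.15 against 23.4, 25.6 and 22.7 FPKM. Carbonic anhydrase CA2 was at 0.0188, 0 and 0.0457 against 14.9, 12.9 and 13.6. GATA6, an endoderm factor, differed by 1.70, and BICC1, an RNA-binding protein, was higher in HPNE (-1.37). The chloride channel CFTR, which drives duct secretion, was at 0.0162, 0.0116 and 0.0163 FPKM in HPDE, the mucin MUC1 at 0.769, 0.366 and 0.536, and PDX1 at 0.0795, 0.00947 and 0.0597. HNF4A had no read in any of the 6 libraries.

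Markers of other cell types were mostly at or near 0 in both lines. Of 14 acinar genes, CEL alone was tested (0.433, 0.321 and 0.263 against 1.43, 1.71 and 1.24 FPKM). Among 16 endocrine genes the hormones INS, GCG and SST had no read. The factor NKX6-1 was at 0, 0.0243 and 0 against 6.57, 5.98 and 7.96 FPKM. The granule protein CHGB was at 0 in each library against 1.105, 1.34 and 1.04, and ISL1 did not pass (difference -0.18). ISL1 passed toward HPNE with size factors (-0.38, adjusted p 0.00302) and without HPDE replicate 1 (-0.22). None of the 9 endothelial genes found (10 listed) reached a mean of 1 FPKM. The leukocyte genes summed to 1.33 to 1.89 FPKM in HPNE and 2.13 to 2.76 in HPDE, and the one gene tested, CD14, did not pass (difference 0.20) except toward HPDE without HPNE replicate 2 (0.30). Of the stellate cell and fibroblast list, 4 of 8 tested genes were higher in HPNE and 3 in HPDE. FAP, a protease of activated fibroblasts, was at 50.2, 49.2 and 59.3 against 0.0238, 0.111 and 0.0627 FPKM. The proteoglycan CSPG4 was at 22.1, 21.6 and 18.7 against 0.224, 0.16005 and 0.162. The stellate cell filament DES had no read in HPNE, and LRAT, which stores vitamin A, and PDPN had none there but were at 2.14, 2.29 and 2.11 and 7.12, 6.51 and 6.28 FPKM in HPDE. PDGFRL did not pass (1.05, 1.005 and 0.659 against 0.887, 0.908 and 1.24 FPKM). Nestin (NES), the protein for which the HPNE line is named, was at 28.2, 27.8 and 39.2 against 2.65, 3.11 and 3.16 FPKM (-3.03, adjusted p 1.00e-06). Of the other neural and progenitor genes, SCG2 (-6.52) and ENO2 (-1.18) were higher in HPNE and L1CAM (4.34), UCHL1 (1.88) and NEFL (1.49) in HPDE.

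Of 12 tested genes of the telomerase and shelterin list (13 listed), 10 were higher in HPDE, and TERT and TERF2IP were higher in HPNE. The HPNE level of TERT was highest in replicate 3. The RNA component TERC, which has no poly(A) tail, was under 1 FPKM in every library. Dyskerin (DKC1), which binds that RNA, was at 16.7, 14.6 and 18.7 against 132, 132 and 141 FPKM (2.95). GAR1 of the same complex was at 10.2, 12.04 and 13.4 against 42.5, 41.04 and 47.8. The shelterin genes that coat telomeres differed little: TERF1 by 0.46, TERF2 by 0.43 and TERF2IP by -0.17. The TERF1 and TERF2 differences, near the median of all genes, did not pass with size factors.

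Genes of the RB and E2F pathway were higher in HPDE in 26 of 30 (median 2.18), and higher in HPNE in 4. CDKN2A, which encodes the CDK4 inhibitor p16 and overlaps an antisense gene that an unstranded kit cannot separate, was at 17.2, 19.02 and 14.6 against 279, 278 and 281 FPKM (3.97 ± 0.090, adjusted p 4.04e-08). The factor E2F1 was at 2.296, 3.28 and 4.76 against 24.9, 27.04 and 23.7 FPKM. Its targets in DNA synthesis went the same way. Ribonucleotide reductase RRM2 was at 6.18, 5.49 and 14.98 against 105, 99.8 and 107. The helicase subunit MCM2 was at 7.904, 7.598 and 11.2 against 75.7, 77.5 and 78.4. The factor MYBL2 was at 2.34, 2.28 and 5.22 against 118, 125 and 122. Cyclin D2 (CCND2) was at 13.6, 13.9 and 16.6 against 118, 122 and 123 FPKM. These genes did not overlap between the lines, with HPNE low throughout. Cyclin D1 (CCND1) was higher in HPNE, at 166, 165 and 215 against 102, 105 and 102. CDKN2B (-1.37), RBL2 (-0.81) and CDKN2C (-0.46) were the other genes higher in HPNE. The CDKN2C call (adjusted p 0.0434) was lost without any 1 of HPNE replicates 1 and 3 and HPDE replicates 2 and 3 (adjusted p 0.0774 to 0.144) and with no filter (0.0887). RB1 itself was at 9.94, 10.1 and 11.4 against 15.2, 14.1 and 13.5 FPKM, a difference of 0.41 that did not pass with size factors (0.08, adjusted p 0.385).

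The E2F site was searched for in the same RefSeq windows as TTTCCCGC or TTTGGCGC on both strands. The MCM6 window (GRCh38.p14) is printed as an example with 2 matches in capitals.
MCM6 promoter, chr2:135876394-135876693, minus strand: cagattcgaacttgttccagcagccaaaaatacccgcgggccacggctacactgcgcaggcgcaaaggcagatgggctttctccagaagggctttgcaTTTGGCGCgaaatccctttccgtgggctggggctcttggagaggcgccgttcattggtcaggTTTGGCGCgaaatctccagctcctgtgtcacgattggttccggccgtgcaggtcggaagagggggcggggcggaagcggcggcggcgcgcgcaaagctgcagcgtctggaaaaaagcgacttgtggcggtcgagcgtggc
MCM6, a subunit of the replicative helicase, was at 8.48, 8.68 and 10.9 against 44.8, 45.1 and 45.5 FPKM. A match was present in 11 of 24 windows of the RB and E2F list, in 1 of 16 windows of the mitosis list and in 2.31% of all windows. The RB and E2F list was written from known genes of the pathway, so its share does not bear on the line difference. Over the windows of tested genes the share was 3.77%. It was 5.42% for genes higher in HPDE by at least 1 and 2.16% for those higher in HPNE. At a difference of at least 4 the shares were 3.82% and 3.67%.

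All 20 mitosis genes were higher in HPDE (median 2.76), with HPNE replicate 3 apart from replicates 1 and 2. The proliferation marker MKI67 was at 1.85, 1.96 and 6.78 against 37.7, 36.3 and 37.6 FPKM. The mitotic kinase CDK1 was at 6.07, 5.54 and 15.9 against 90.8, 81.7 and 84.9. AURKA was at 2.97, 3.28 and 8.53 against 67.4, 64.04 and 67.7. HPNE replicate 3 was the highest HPNE library for each, and the list summed to 92.4 to 211 FPKM over the HPNE libraries and 1041 to 1077 FPKM over the HPDE libraries. Without HPNE replicate 3 all 20 genes still passed, with a median of 3.08. No mitosis gene of HPNE replicate 3 reached an HPDE library.

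Of the p53 targets on the list, 18 of 23 tested (24 listed, median -0.66) were higher in HPNE and 4 in HPDE. SFN (9.23) and PERP (2.54), which p53 can also raise, were counted in the squamous and desmosome lists. Both were higher in HPDE, so the count holds for this list only. The cell cycle inhibitor CDKN1A (p21) was at 308, 303 and 253 against 51.1, 51.3 and 53.6 FPKM (-2.44 ± 0.082, adjusted p 2.46e-07). EDA2R, a member of the tumour necrosis factor receptor family, was at 9.59, 8.76 and 10.3 against 0, 0 and 0.00729 FPKM. TP53INP1 was at 20.4, 19.7 and 13.7 against 0.97003, 1.26 and 0.861. ZMAT3 was at 25.4, 25.7 and 27.8 against 2.08, 2.03 and 2.28. The apoptosis gene BBC3 was at 23.9, 22.6 and 12.2 FPKM in HPNE, lowest in replicate 3, and 4.995, 3.84 and 4.701 in HPDE. MDM2, which encodes the ligase that degrades p53 in normal cells, did not pass (14.2, 13.4 and 12.7 against 12.5, 11.9 and 11.9 FPKM). It passed toward HPNE with size factors (-0.47), without HPNE replicate 3 (-0.17, adjusted p 0.00955) and by voom on recovered reads (-0.15, adjusted p 0.0389). AEN (1.01), BTG2 (0.82), C12orf5 (0.56) and TNFRSF10B (0.48) were higher in HPDE.

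Interferon-stimulated genes were higher in HPDE in 20 of 21 (median 4.88). Type I interferons raise these antiviral genes, and several sense or block viral RNA. ISG15, a ubiquitin-like modifier, was at 61.02, 61.96 and 47.96 against 888, 874 and 761 FPKM. MX1, which traps viral particles, was at 2.73, 2.45 and 1.55 against 294, 322 and 258. OAS1, which makes the signal for RNA decay, was at 0.178, 0.224 and 0.0789 against 110.0, 107 and 90.9. HPNE replicate 3 was the lowest library for these genes, and no HPNE library came near HPDE. IFI27 (7.37), OAS3 (7.30) and OAS2 (6.71) differed most. HPNE kept part of the set, with IFIT1 at 17.1, 17.03 and 16.3 FPKM there and 241, 233 and 202 in HPDE. IRF7 was at 2.82, 3.58 and 2.02 against 131, 148 and 118. IRF9 was at 0.386, 0.885 and 0.399 against 3.07, 3.65 and 3.21. IRF1, which belongs more to the response to interferon gamma, did not pass (11.9, 11.8 and 9.88 against 12.02, 12.4 and 11.4 FPKM), and with size factors it passed toward HPNE (-0.25, adjusted p 0.0214). The list summed to 243 to 263 FPKM in HPNE and 4031 to 4604 FPKM in HPDE.

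The interferon element (GAAA, any 2 bases, GAAA, on either strand) was present in 9 of the 15 windows found for these genes and in 3.65% of all windows. These genes were listed as known interferon targets, so their share does not bear on the line difference. Over the windows of tested genes the share was 3.02%. It was 4.14% for genes higher in HPDE by at least 1 and 3.04% for those higher in HPNE. At a difference of at least 4 the shares were 9.16% and 5.51%. The windows of ISG15 and IFIT1 are printed (RefSeq, GRCh38.p14) since each holds the element 2 times within a short stretch. Capitals mark the matches, which overlap in ISG15 and lie on the other strand in IFIT1, where they read TTTC, 2 bases, TTTC.
ISG15 promoter, chr1:1013247-1013546, plus strand: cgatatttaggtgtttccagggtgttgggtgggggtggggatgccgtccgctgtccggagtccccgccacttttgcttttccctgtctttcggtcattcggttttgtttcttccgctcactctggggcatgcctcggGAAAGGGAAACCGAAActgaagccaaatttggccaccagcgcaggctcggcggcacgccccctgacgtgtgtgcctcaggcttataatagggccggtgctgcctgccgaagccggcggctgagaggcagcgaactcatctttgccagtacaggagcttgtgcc
IFIT1 promoter, chr10:89392373-89392672, plus strand: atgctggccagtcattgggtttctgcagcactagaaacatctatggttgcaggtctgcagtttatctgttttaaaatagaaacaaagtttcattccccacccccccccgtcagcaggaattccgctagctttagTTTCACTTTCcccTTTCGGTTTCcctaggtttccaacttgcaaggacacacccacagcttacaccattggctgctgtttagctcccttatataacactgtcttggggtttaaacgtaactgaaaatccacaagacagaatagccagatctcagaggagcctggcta
The matches begin 113 and 107 bases before the start of ISG15 and 116 and 103 bases before that of IFIT1.

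**Figure D3:**
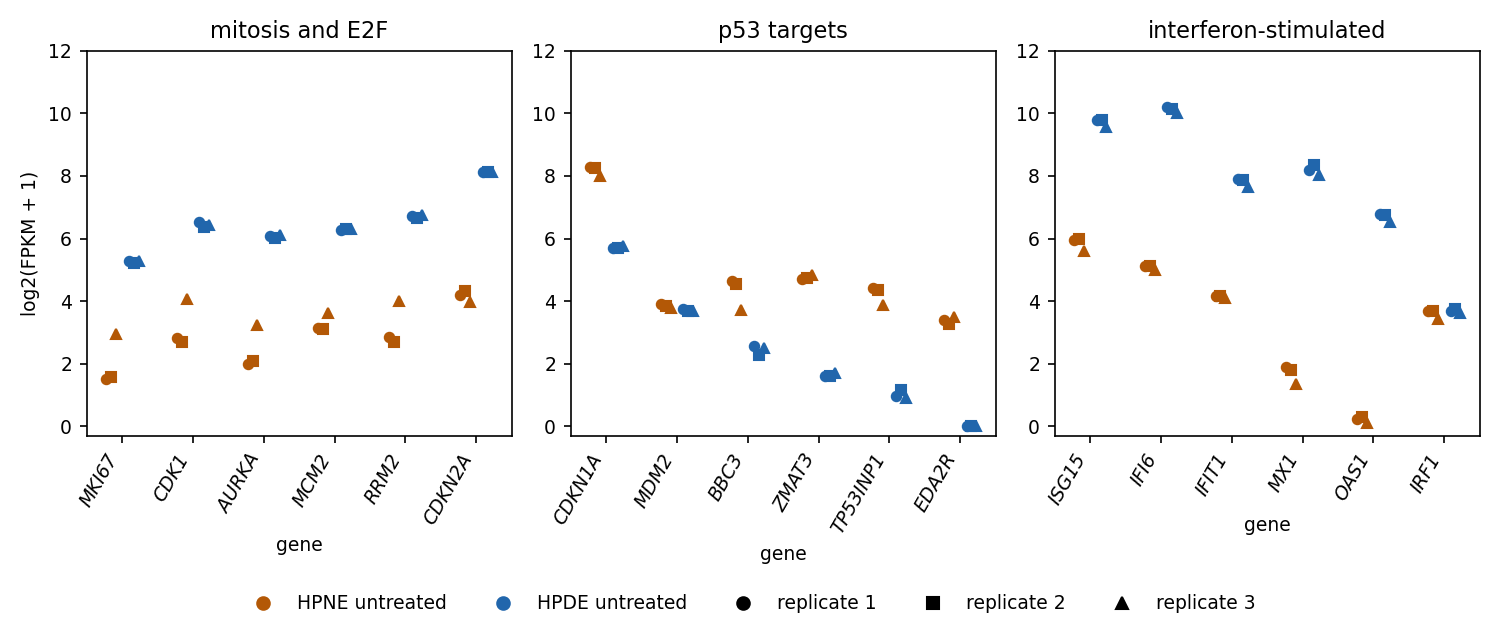
Levels as log2(FPKM + 1) of 6 mitosis and RB pathway genes, 6 p53 targets and 6 interferon-stimulated genes in the 6 untreated libraries; symbol shape gives the replicate. HPNE replicate 3 (orange triangles) lies above the other HPNE libraries for MKI67, CDK1 and AURKA but below every HPDE library, and MDM2 and IRF1 are at about the same level in both lines.

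Growth factor genes showed more ligands of the EGF receptor in HPDE. Of 10 tested genes of this family (12 listed, median 2.44), 9 were higher in HPDE and ERBB2 did not pass (16.8, 16.999 and 19.7 against 18.4, 20.1 and 19.2 FPKM; with size factors it passed toward HPNE, at -0.24, and without HPNE replicate 3 toward HPDE, at 0.17). TGFA, the transforming growth factor alpha, was at 0.01498, 0.07401 and 0.0243 against 66.1, 66.4 and 68.6 FPKM. Amphiregulin (AREG) was at 4.22, 5.22 and 4.16 against 128, 115 and 140.1. The receptor EGFR was at 17.04, 16.7 and 26.6 against 60.3, 56.3 and 57.6. In the FGF list 5 of 8 tested genes (13 listed) were higher in HPDE and 3 in HPNE. FGF receptors differed in both directions. FGFR1 was at 21.4, 22.6 and 21.2 against 1.96, 2.03 and 2.25 FPKM. FGFR3 was at 0.1504, 0.0817 and 0.0183 against 6.43, 6.59 and 5.42 and FGFR2 had no read in HPNE and was at 1.73, 1.58 and 1.54 in HPDE. FGFBP1, which releases FGF from matrix, was at 0, 0.305 and 0.231 against 905, 838 and 775.

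In the TGF-beta and BMP list, 12 of 19 tested genes (21 listed) were higher in HPNE, 5 in HPDE, and LTBP2 (difference 0.20) and ID3 (-0.81) did not pass. LTBP2 passed toward HPDE without HPNE replicate 3 (0.36). ID3 passed toward HPNE with size factors (-1.16), in the fit of all 24 libraries, and without HPNE replicate 1 (-1.08) or 3 (-0.36). The BMP antagonist gremlin (GREM1) was at 1628, 1589 and 1464 against 0.0954, 0.603 and 0.394 FPKM. The activin antagonist follistatin (FST) went the other way, at 17.2, 15.7 and 10.8 against 297, 272 and 273. LTBP1, which stores TGF-beta in matrix, was at 131, 131 and 165 against 0.654, 0.924 and 0.7903. The receptor TGFBR2 differed by -1.55 and the ligand TGFB1 by -0.56.

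WNT ligands and receptors differed both ways, with 12 of 21 tested (30 listed) higher in HPDE and 8 in HPNE. WNT5A, a ligand of non-canonical signalling, was at 220.2, 225 and 334 against 0, 0.188 and 0.0536 FPKM. WNT5B was at 55.9, 52.98 and 73.1 against 1.396, 1.09 and 1.72. For both, every HPNE library lay far above every HPDE library. WNT7A, a ligand of epithelial cells, was at 0, 0.00789 and 0.00648 against 20.6, 18.2 and 19.6. Of the secreted antagonists, DKK1 was at 2.52, 2.99 and 6.27 against 219, 186 and 205 FPKM. DKK3 was at 337, 341 and 467 against 55.2, 56.5 and 55.6. SFRP1 did not pass; it was at 27.7, 27.5 and 113 FPKM in HPNE, with replicate 3 far above the others, and 26.5, 27.6 and 27.2 in HPDE. HOX genes, which mark position along the body axis, were tested for 10 of 39 listed, and 8 of the 10 were higher in HPNE. Antisense genes within the HOX clusters can share reads with them. HOXB5 was at 18.6, 20.6 and 20.1 against 0.0812, 0.0929 and 0.0366 FPKM, HOXB6 differed by -2.73 and HOXB7 by -2.70. HOXA3 (0.43) was higher in HPDE, but not with size factors (0.20, adjusted p 0.137).

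Untreated HPDE cells also had more cytokine transcripts. Of 17 tested genes (24 listed, median 2.84), 13 were higher in HPDE, 2 in HPNE and LIF and IL11 did not pass. Interleukin 1 alpha (IL1A), an alarm signal that epithelial cells store, was at 0.213, 0.826 and 0.172 against 383, 392 and 396 FPKM. IL1B was at 1.603, 1.82 and 2.02 against 102, 104 and 95.2. CSF3, which mobilises neutrophils, was at 0, 0.0763 and 0.0156 against 56.7, 70.9 and 67.4. No line overlapped the other for these cytokines. CSF1, the growth factor of macrophages, was higher in HPNE, at 48.4, 47.6 and 40.3 against 4.196, 4.497 and 4.52 FPKM, as was TSLP (-0.79). LIF was at 4.99, 4.82 and 10.99 against 5.85, 7.504 and 7.999. IL11 was at 2.76, 2.601 and 5.598 against 3.97, 4.29 and 4.06 FPKM, with HPNE replicate 3 highest of the HPNE libraries for both. Both passed toward HPDE without HPNE replicate 3, by 0.45 and 0.47.

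Housekeeping genes, like most tested genes, were not level between the lines. Of 15, 10 were higher in HPDE, B2M was higher in HPNE (-0.51), and 4 did not pass, among them RPLP0 (-0.02), GUSB (0.22) and POLR2A (0.06) (median of the list 0.86). Over all tested genes 85% passed, 56% toward HPDE and 29% toward HPNE, so these counts do not set the list apart. The sign differed with size factors for 4 of the 15. With size factors RPLP0 (-0.38) and POLR2A (-0.29) passed toward HPNE and GUSB was at -0.12. Without HPNE replicate 3, RPLP0 passed toward HPNE (-0.13) and POLR2A toward HPDE (0.10). GUSB passed toward HPDE in the fit of all 24 libraries and without HPNE replicate 1 (0.30). HPRT1 was at 15.4, 15.1 and 18.2 against 60.9, 66.5 and 64.05 FPKM. YWHAZ was at 80.5, 76.7 and 88.6 against 272, 268 and 264. ACTB was at 758, 744 and 1755 FPKM in HPNE, with replicate 3 at more than the other libraries, and at 2362, 2497 and 2447 in HPDE. GAPDH differed by 0.43, near the median of all genes, and by 0.06 with size factors, which did not pass.

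The same comparison was made in the libraries of the other 3 treatments, whose values the minimum did not use. Higher in HPDE were 7454 genes (55.6%) with residual medium, 7393 (55.2%) after PANC-1 vesicles and 7564 (56.4%) after PPCL-68 vesicles. Higher in HPNE were 3069 (22.9%), 3531 (26.3%) and 3213 (24%). Of the 11390 untreated calls, 9242 were called in the same direction with residual medium (81.1% of the untreated calls and 87.8% of the residual medium calls), 9902 with vesicles of PANC-1 (86.9% and 90.6%) and 9440 with those of PPCL-68 (82.9% and 87.6%). In all 3 of them, 8244 (72.4%) were. Of the 5363 untreated calls of at least 1, 4849 (90.4%) were called in the same direction in all 3, 3160 also stayed at 1 or more in each of the 3, and 39 were called the opposite way in at least 1. Of all untreated calls, 484 were called the opposite way in at least 1.

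Epithelial genes kept their direction, as did most matrix genes. The 23 junction genes, 15 epithelial factors and 13 desmosome genes were called in the same direction under all 4 treatments. So were 23 of the 28 matrix genes and 19 of the 21 interferon-stimulated genes. Of all untreated calls, 72.4% were called in the same direction in the 3 other treatments, and of those of at least 1, 90.4% were. The list counts are over tested genes, among them THBS1 and IRF1, which did not pass untreated, so their base is not that of these shares. Of the 20 interferon-stimulated genes called untreated, 19 kept their direction. These counts are descriptions and set no list apart. EPCAM differed by 7.45, 7.40 and 7.46 with residual medium and with vesicles from PANC-1 and PPCL-68, VIM by -3.97, -3.60 and -2.87, COL1A1 by -9.01, -9.51 and -8.65 and TERT by -6.68, -5.81 and -6.15. The keratins KRT19, with 9.67, 8.34 and 8.01, and KRT5, with 9.44, 9.35 and 7.95, differed in the same direction, and both stayed far above HPNE. The HPDE level of KRT19 was 1048 ± 84.3, 426 ± 45.7 and 326 ± 12.6 FPKM in these 3 treatments and that of KRT5 was 937 ± 91.7, 861 ± 42.2 and 326 ± 26.8 (mean ± SD, n = 3). Of the 12 tested factors of epithelial to mesenchymal transition, 10 were called in the same direction under all 4 treatments. SNAI1 did not keep its direction: it differed by 0.60, -0.19 and 1.34, and passed toward HPDE with PPCL-68 EV (adjusted p 8.82e-04). TWIST2 did not either, with -0.23, -0.42 and 0.10, of which only the PANC-1 EV difference passed. Mitosis genes passed for 6 of 20 with residual medium and for 20 with each kind of EV, with medians of 1.09, 1.76 and 2.13. MKI67 was at 14.9 ± 9.498, 3.63 ± 0.666 and 2.19 ± 1.02 FPKM in HPNE and 27.4 ± 1.77, 20.1 ± 1.71 and 12.8 ± 0.956 in HPDE with residual medium and with vesicles from PANC-1 and PPCL-68 (mean ± SD, n = 3 each). Of the 23 p53 targets, 7, 13 and 13 passed toward HPNE and 7, 4 and 6 toward HPDE under these 3 treatments, with medians of -0.08, -0.32 and -0.35, where 22.9%, 26.3% and 24% of all genes passed toward HPNE.

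Whether the line difference itself depended on treatment was tested as a contrast over all 24 libraries, the untreated difference minus the mean of the other 3. It passed for 5540 genes (41.3%), with 2523 (18.8%) positive and 3017 (22.5%) negative. Without HPNE replicate 2 of the untreated group, 4077 passed. Among the lists, mitosis genes were positive in 17 of 20 and RB and E2F genes in 22 of 30. The listed p53 targets were negative in 15 of 23, and cytokines were positive in 9 and negative in 4 of 17. Junction genes were negative in 12 and positive in 3 of 23, so their sizes depended on treatment though their direction did not. Basement membrane genes were negative in 10 and positive in 3 of 22, and HOX genes in 6 and 1 of 10.

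The 2 largest positive contrasts were in chemokines whose line difference changed sign. IL8, which attracts neutrophils, was at 2.31, 2.64 and 4.697 FPKM in untreated HPNE and 31.2, 36.5 and 37.3 in untreated HPDE. With residual medium, PANC-1 EV and PPCL-68 EV it was at 1492 ± 548, 1409.6 ± 278 and 2514 ± 264 FPKM in HPNE and 209 ± 29.9, 352 ± 8.49 and 174 ± 16.7 in HPDE (mean ± SD, n = 3). IL8 was higher in HPDE without treatment and higher in HPNE with each treatment, the differences being 3.13 untreated and -2.76, -1.98 and -3.85 with the treatments (contrast 5.99 ± 0.27, adjusted p 3.47e-12). CXCL1, a chemokine of the same family, did likewise, with 3.94 untreated and -0.90, -0.97 and -1.95 otherwise (contrast 5.21, adjusted p 1.61e-10). The arginine transporter SLC7A2 was at 5.09, 5.36 and 5.22 against 7.89, 6.55 and 6.84 FPKM untreated, and its difference went from 0.38, which did not pass with size factors (0.07, adjusted p 0.458), to -2.39, -1.88 and -4.61 (contrast 3.33). SERPINB2, an inhibitor of plasminogen activators, and IL1B kept their direction with smaller differences in the treated libraries, 0.56, 1.57 and 0.83 and 3.10, 2.19 and 1.00. For SERPINB2 the residual medium difference did not pass (adjusted p 0.218).

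On the negative side, ADH1B, an alcohol dehydrogenase, was at 149.9, 146 and 111 FPKM in untreated HPNE and at 0, 0.0175 and 0.0245 in HPDE. It was at 4.94 ± 7.88, 23.96 ± 13.5 and 7.92 ± 10.6 FPKM in HPNE with residual medium and with vesicles from PANC-1 and PPCL-68 (mean ± SD, n = 3), with wide spreads between libraries, and the line difference did not pass with residual medium (adjusted p 0.143). Its contrast was -4.23 ± 0.82 (adjusted p 5.63e-04). SCG2 (secretogranin II) followed it, with 5.94 ± 1.71, 25.5 ± 7.22 and 7.81 ± 0.253 FPKM in treated HPNE against 122, 116 and 80.1 untreated. The antimicrobial genes LCN2 and DEFB4A and the envelope gene SPRR2D were higher in HPDE under every treatment and more so in the treated libraries. LCN2 was at 9.47, 10.6 and 12.04 FPKM in untreated HPDE and at 76.1 ± 2.03, 233 ± 4.27 and 269 ± 6.98 with the treatments, SPRR2D at 2.32, 3.23 and 3.83 and 19.5 ± 1.72, 102 ± 1.88 and 143 ± 16.001, and DEFB4A at 1.74, 0.998 and 0.786 and 16.6 ± 4.51, 20.5 ± 1.99 and 18.996 ± 2.22. SPRR2D and DEFB4A have near-identical copies that could share their reads.

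**Figure D4:**
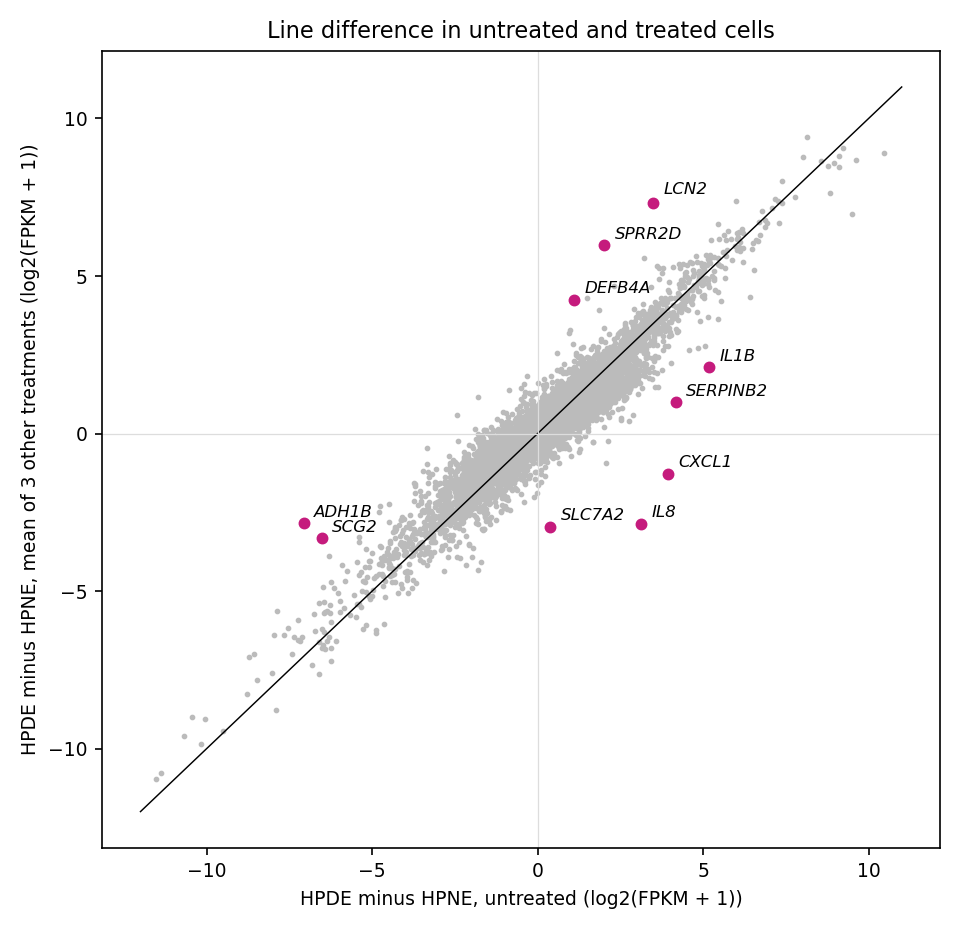
Line difference of each of the 13405 genes in untreated cells (horizontal) and averaged over the 3 other treatments (vertical), both HPDE minus HPNE on the log2(FPKM + 1) scale, with the line of equal values. The 10 labelled genes have the largest contrasts, and IL8, CXCL1 and SLC7A2 lie right of 0 on one axis and below 0 on the other.

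Line differences were not spread evenly over the chromosomes. Over genes on autosomes present in both lines, the median was 0.34, and single autosomes were set against it. Chromosome 20 was 0.49 above (294 genes, 71.4% of them above the autosome median). Chromosome 13 was -0.58 away (172 genes, 27.9% above), chromosome 3 was -0.35 away (576 genes) and chromosome 22 was -0.32 away (251 genes). In windows of 10 Mb with at least 20 genes, 199 in all, the quartiles of the window medians were -0.13 and 0.16. The lowest windows were on chromosome 10 from 20 to 30 Mb (-1.12) and chromosome 3 from 10 to 20 Mb (-1.05), and the highest on chromosome 20 from 10 to 20 Mb (0.75). These are descriptions with no test, in hg19 coordinates. DNA copy number was not analysed here.

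**Figure D5:**
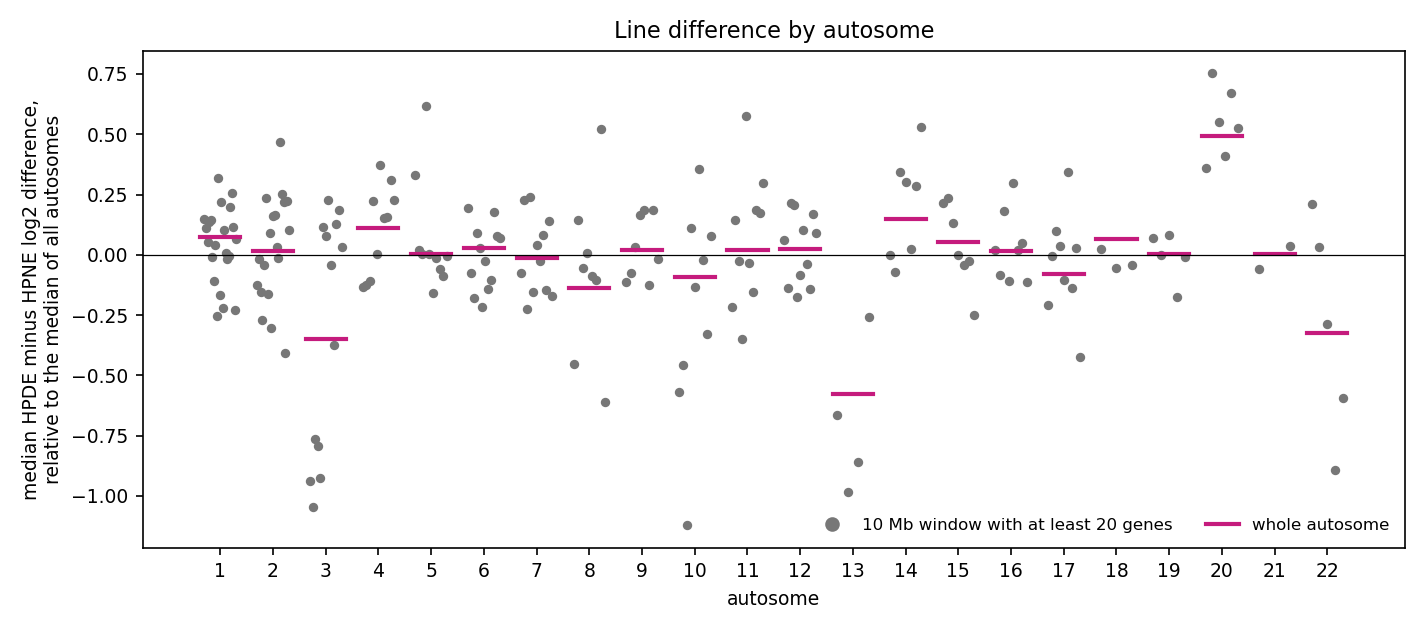
Median line difference (log2) of genes present in both lines, relative to the median of all autosomes, for each autosome (horizontal lines) and each 10 Mb window with at least 20 genes (points, in order along the autosome). Chromosome 20 lies above 0 in every window shown, and chromosome 13 and part of chromosome 3 lie below.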

How the data were processed

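The authors deposited, per the file headers, 1 table per library with an FPKM value for each of 48162 genes. The submitters' processing notes name hg19 and the tools CASAVA, STAR, HTSeq and DESeq2, with no version or role given in the sources used here. Per the labels' protocols the library kit was non-directional, so genes that overlap on opposite strands share reads. Titles gave each library's group and replicate number. FPKM times the gene length in the table came in whole multiples of 1 step per library, which gave whole reads for 100% of the values (tolerance 0.05 of a read), from which the depth of 29209142 to 46490312 reads per library over all 24 was taken.

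The main test was limma 3.58.1 (lmFit, eBayes with trend, R 4.3.3) on log2(FPKM + 1) over the 6 untreated libraries, without a replicate block, two-sided, with Benjamini-Hochberg adjustment over 13405 genes and a threshold of 0.05. The scale understates the differences of low genes, and the p-values measure only the spread between these libraries. The same fit was made for each of the other treatments, and 1 fit of all 24 libraries gave the contrast of untreated against the rest. The pipeline was tested on simulated data. Alternatives were a pseudocount of 0.1, other filters, size factors, a replicate block, voom on the recovered reads, 1 fit of all libraries and leaving out each library.

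The genes and the 31 lists (601 genes) were chosen with earlier results of these data known. Named genes were EPCAM, KRT19, VIM and TERT, the 10 protein-coding genes with the largest called difference each way, list members (anchors and the largest), and the 5 largest contrasts each way; genes of chromosome Y and XIST were left out. Promoter windows came from RefSeq (GRCh38.p14); 75.1% of the tested genes had one. The listed PECAM1 was not found under its symbol and was not used here. Some genes of the lists are counted but not reported by name here.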

Additional observations from a re-analysis of the deposited data

Results flagged for a closer look

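The line difference depended on treatment for 5540 genes (limma contrast of the untreated difference against the mean of the other 3 treatments), with 2523 positive and 3017 negative. The genes with the largest contrasts (log2, HPDE minus HPNE) were IL8 at 5.99, CXCL1 at 5.21, SLC7A2 at 3.33, SERPINB2 at 3.18 and IL1B at 3.08 on the positive side. On the negative side they were ADH1B at -4.23, SPRR2D at -3.97, LCN2 at -3.84, SCG2 at -3.21 and DEFB4A at -3.15. IL8, CXCL1 and SLC7A2 had differences of opposite sign in untreated and treated cells, each past the test. For SLC7A2 the untreated difference (0.38) did not pass with size factors.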

How the results depend on the processing

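The direction split of all calls moved with scaling, as given in the report. Genes called with a difference of at least 1 fell to 2341 higher in HPDE and 964 higher in HPNE when the minimum had to be met in both lines, where 10462 genes were tested. With size factors, genes higher in HPNE rose to 4766 after residual medium and 4891 after PPCL-68 vesicles. No other count moved by more than 1.5 times under a pseudocount of 0.1, no filter, 1 fit of all 24 libraries or voom on recovered reads (11339 genes called in untreated cells). With a replicate block, 11266 genes passed in untreated cells, 10228 after residual medium, 10872 after PANC-1 vesicles, 10632 after PPCL-68 vesicles and 5504 in the contrast, so the block moved no count by more than 1.5 times, and it changed the call of none of the genes named. Same-numbered untreated libraries shared only a number, with deviations correlated at -0.0022, 0.096 and 0.018. Leaving out 1 library at a time gave 10810 to 11858 genes called in untreated cells (7155 to 7700 higher in HPDE, 3654 to 4158 higher in HPNE, and 3597 to 3686 and 1735 to 1819 with a difference of at least 1). It gave 9610 to 11339 after residual medium, 10239 to 11375 after PANC-1 vesicles, 10050 to 11361 after PPCL-68 vesicles and 4077 to 6072 in the contrast, the lowest without HPNE untreated replicate 2 and the highest without HPNE untreated replicate 3. Among the genes named, with size factors the difference turned negative for S100A4 (-0.13), THBS1 (-0.19), PDGFRL (-0.0945), ERBB2 (-0.24), LTBP2 (-0.15), LIF (-0.21), IL11 (-0.0946), IRF1 (-0.25), GUSB (-0.12) and POLR2A (-0.29). Without 1 library, the sign turned in at least 1 case for genes that did not pass in the reported comparison, with ranges of -0.306 to 0.155 for NT5E, -0.223 to 0.0554 for PLEC, -0.0154 to 0.137 for PDGFRL, -0.128 to 0.0489 for RPLP0, -0.00974 to 0.210 for S100A4 and -0.0721 to 0.449 for LIF. The cause was not tested. Levels under 1 FPKM rest on few reads.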

Other observations

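Imprinted genes, which are expressed from 1 parental copy, differed both ways. Of 13 tested (19 listed), 6 were higher in HPDE, 5 in HPNE, and H19 and GRB10 (-0.07) did not pass, though GRB10 passed toward HPNE with size factors (-0.40). The growth factor gene IGF2 was at 75.3, 77.1 and 38.7 FPKM in HPNE and 0.131, 0.0636 and 0.0357 in HPDE. The long non-coding RNA MEG3 was at 76.04, 89.6 and 41.6 in HPNE and 0, 0 and 0.0307 in HPDE. MEST ran the other way, at 0.275, 0.764 and 0.456 FPKM in HPNE and 42.7, 40.2 and 43.6 in HPDE. So did NDN, at 0.0685, 0 and 0 in HPNE and 7.05, 6.57 and 6.26 in HPDE. H19, which neighbours IGF2, was at 22.96, 20.7 and 3.96 FPKM in HPNE, with replicate 3 far below the others, and 6.804, 6.74 and 6.89 in HPDE. Without HPNE replicate 3, H19 was higher in HPNE (-1.545, adjusted p 1.24e-07).

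By gene type, 86.1% of 11874 protein-coding genes, 81.1% of 328 lincRNA genes and 72.3% of 487 pseudogenes passed in the untreated comparison. Pseudogenes can share reads with their parent genes.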
